A study of Mus musculus with 9 samples.

Results

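Transcripts of 10 genes that encode RFX transcription factors or regulators of cilium formation were followed in the testes of wild type and Rfx2-/- mice. The genes were Rfx1, Rfx2, Rfx3, Rfx4, Rfx7, Foxj1, Mcidas, Gmnc, Ccno and E2f4, picked by name, and all 10 were found among the 23074 genes of the count table. RNA-seq was performed on whole decapsulated testes collected at postnatal day 29 to 30 from 5 wild type and 4 Rfx2-/- mice, with 1 library per mouse. Both genotypes shared a mixed background of C57BL/6, 129/Sv and FVB/N. The knockout was constitutive: loxP sites were placed around exon 7 of Rfx2 in R1 embryonic stem cells of 129/Sv origin, the exon was excised by a universal ACTB-cre transgene, and the methods describe the mixed-background line as retaining the neo selection cassette. The comparison asks how loss of RFX2 affects the mRNA of the other regulators.

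RFX proteins share a winged-helix DNA-binding domain and recognise the X-box, an imperfect inverted repeat, as homodimers or as heterodimers with one another. RFX2 and RFX3 are known for activating genes of cilia and flagella, and the sperm flagellum is built on a modified motile cilium. FOXJ1 is the forkhead factor of motile ciliogenesis, while GMNC (GEMC1), MCIDAS (multicilin), E2F4 and CCNO act in the program by which multiciliated epithelial cells amplify their centrioles.

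Sequences of the deleted exon and of 4 promoters are shown because the first defines the knockout and the others hold the letters that RFX proteins read. The excised exon occupied chr17:56787579-56787760 of GRCm38 on the minus strand, and was exon 7 of 18 in one annotated transcript of Rfx2 and exon 6 of 17 in another. It is 182 bases long, which leaves a remainder of 2 on division by 3, and made up 5.42% of the merged exons of the gene. Capitals mark the match to the exon 7 primer that the study used to detect the wild type transcript.
Rfx2 exon 7: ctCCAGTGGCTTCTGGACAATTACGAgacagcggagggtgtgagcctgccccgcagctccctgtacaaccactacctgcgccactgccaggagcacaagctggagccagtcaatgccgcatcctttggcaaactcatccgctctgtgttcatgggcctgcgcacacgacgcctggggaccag
Promoter windows ran from 250 bases before to 50 bases after the start site in RefSeq (GRCm38.p6) and were found for 8 of the 10 genes, all but Foxj1 and E2f4. As Rfx4 and Gmnc have 2 start sites each, there were 10 windows. Those of Rfx2 (chr17:56830959-56831258, minus strand), Rfx3 (chr19:28011117-28011416, minus strand), Ccno (chr13:112987552-112987851, plus strand) and Rfx1 (chr8:84066586-84066885, plus strand) are written 5′ to 3′, with capitals for the RFX core letters GTTGCC and, in Ccno, for the whole X-box.
Rfx2 promoter: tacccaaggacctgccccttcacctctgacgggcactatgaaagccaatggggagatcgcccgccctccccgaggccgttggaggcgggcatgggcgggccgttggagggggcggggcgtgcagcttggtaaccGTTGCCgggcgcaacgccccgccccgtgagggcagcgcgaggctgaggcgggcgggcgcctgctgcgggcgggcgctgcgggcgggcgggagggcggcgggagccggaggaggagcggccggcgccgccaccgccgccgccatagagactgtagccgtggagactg
Rfx3 promoter: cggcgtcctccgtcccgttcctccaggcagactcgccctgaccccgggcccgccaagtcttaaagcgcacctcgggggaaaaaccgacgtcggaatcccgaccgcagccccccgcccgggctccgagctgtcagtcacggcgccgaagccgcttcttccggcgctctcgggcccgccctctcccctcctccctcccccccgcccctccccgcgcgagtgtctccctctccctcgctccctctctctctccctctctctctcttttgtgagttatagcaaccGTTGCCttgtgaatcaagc
Ccno promoter: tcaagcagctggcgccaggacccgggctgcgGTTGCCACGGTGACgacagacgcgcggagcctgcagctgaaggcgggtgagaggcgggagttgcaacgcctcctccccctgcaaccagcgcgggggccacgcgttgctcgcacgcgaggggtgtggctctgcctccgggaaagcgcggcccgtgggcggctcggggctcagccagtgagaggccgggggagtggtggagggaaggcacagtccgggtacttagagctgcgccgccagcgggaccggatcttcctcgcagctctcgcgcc
Rfx1 promoter: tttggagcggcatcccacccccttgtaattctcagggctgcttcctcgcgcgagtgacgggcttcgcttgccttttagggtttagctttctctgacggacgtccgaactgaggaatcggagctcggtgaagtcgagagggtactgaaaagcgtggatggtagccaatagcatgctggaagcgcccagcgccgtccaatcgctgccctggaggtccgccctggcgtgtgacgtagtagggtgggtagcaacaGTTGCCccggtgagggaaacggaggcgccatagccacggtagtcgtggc

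The letters GTTGCC, searched on both strands, occurred in 5 of these 10 windows, each of a different gene, and in 12.5% of all 32851 promoters. They began at -116 from the start site in Rfx2, at -195 in Mcidas and at -219 in Ccno, and at +2 in Rfx1 and +32 in Rfx3. A full X-box, searched as an inverted pair of core sites at most 3 bases apart, was present in 1 of the 10 windows, that of Ccno, and in 1.53% of all promoters. Its letters were GTTGCCACGGTGAC, so the core site of Ccno lies within its X-box. The forkhead letters GTAAACA, the E2F letters TTGGCGC and TTCCCGC and the CRE letters TGACGTC were found in none of the 10 windows, and in 3.65%, 2.45%, 4.6% and 3.21% of all promoters. Such matches describe the letters of a window of 300 bases, and binding of a factor to them was not analysed here.

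Total counts ranged from 13574764 to 15193330 in 8 libraries and reached 28800855 in Rfx2-/- replicate 1. Levels below are in CPM, read counts brought to a common library total with the TMM factors of edgeR. Calls required more than a 2-fold change together with an adjusted p of 0.01 or less in the quasi-likelihood test of edgeR. Knockout libraries scattered more than wild type ones, with a biological coefficient of variation of 0.310 (n = 4) against 0.139 (n = 5), and 0.188 without Rfx2-/- replicate 2. That library differed from the other knockouts by transcript length, its median log2 deviation falling from 0.58 for genes under 2 kb of exon (n = 3729) to -0.88 for genes over 8 kb (n = 1167). In Rfx2-/- replicate 1 the same medians went the other way, from -0.35 to 0.50, and in replicate 3 from -0.20 to 0.37. In replicate 4 they were 0.0046 and 0.0096. Each library was set against the mean of the other knockouts. Replicate 2 is thus part of the reference for the rest, and an opposite trend there is partly built in. Results for the 8 tested genes are therefore given with and without Rfx2-/- replicate 2.

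Germ cell marker levels also differed between the genotypes. All 8 elongating spermatid markers had lower fitted values in Rfx2-/-, 7 of them at an unadjusted edgeR p under 0.05 (13.7% of all tested genes in this direction), with summed levels of 7865 to 16883 CPM in wild type and 6088 to 10138 CPM in knockout libraries. All 8 meiotic prophase markers had higher fitted values, 6 at an unadjusted p under 0.05 (13.9% of all tested genes in this direction), with sums of 1011 to 1346 CPM against 1467 to 3106 CPM, the highest of which was Rfx2-/- replicate 2. Median log2 fold changes were -0.80 and 0.65 for these lists, and between -0.04 and 0.19 for markers of round spermatids, spermatogonia, Sertoli, Leydig and peritubular cells and macrophages. Of 8 markers of the rete testis and efferent ducts, where multiciliated cells lie, 4 had enough counts to be tested, their median was 0.01 and the summed levels overlapped (17.02 to 23.4 and 13.1 to 22.9 CPM). Of these 4, 2 had fitted values below 0. Cubn, at -0.82 (edgeR adjusted p 0.00873), was lower without overlap, as were 9.7% of all tested genes. Among the untested 4, Sntn had 5 counts in all wild type libraries together and 0 in the knockouts, and the genotypes overlapped. Cdhr3, with 15 and 138 counts, was higher in every knockout library (0.217 ± 0.132 CPM, n = 5, and 1.76 ± 0.932 CPM, n = 4, SD). The share of untested genes that were higher without overlap was not determined. Tmem212 (12 counts in wild type and 5 in knockout libraries) and Pax8 (8 and 12 counts) overlapped between genotypes. No marker of any list was called. In whole testis, fewer cells of a type and less RNA per cell cannot be told apart, and the part of these differences in the results that follow was not tested.

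Of the 10 genes, 8 had enough counts to be tested, and 3 of them, Rfx2, Rfx3 and Ccno, were called lower in Rfx2-/- testes. Rfx2 is the targeted gene, so its own fall is no response of another regulator. It is nevertheless included in the counts and the median of this paragraph. None was called higher. Over all 15613 genes tested, 3.68% were called lower and 0.826% higher. When the 2-fold limit itself was tested in edgeR, none of the 3 passed, with adjusted p-values of 0.0283 for Rfx2, 0.0200 for Rfx3 and 0.0481 for Ccno. The fitted change was below 0 for 7 of the 8 genes, with a median log2 fold change of -0.59 against 0.03 for all tested genes. Gmnc and Mcidas, the upstream geminin-family regulators of multiciliation, were near the limit of detection and are described by their counts. The plot of levels by library shows the 3 called genes and Gmnc separated by genotype and the others overlapping.

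**Figure D1:**
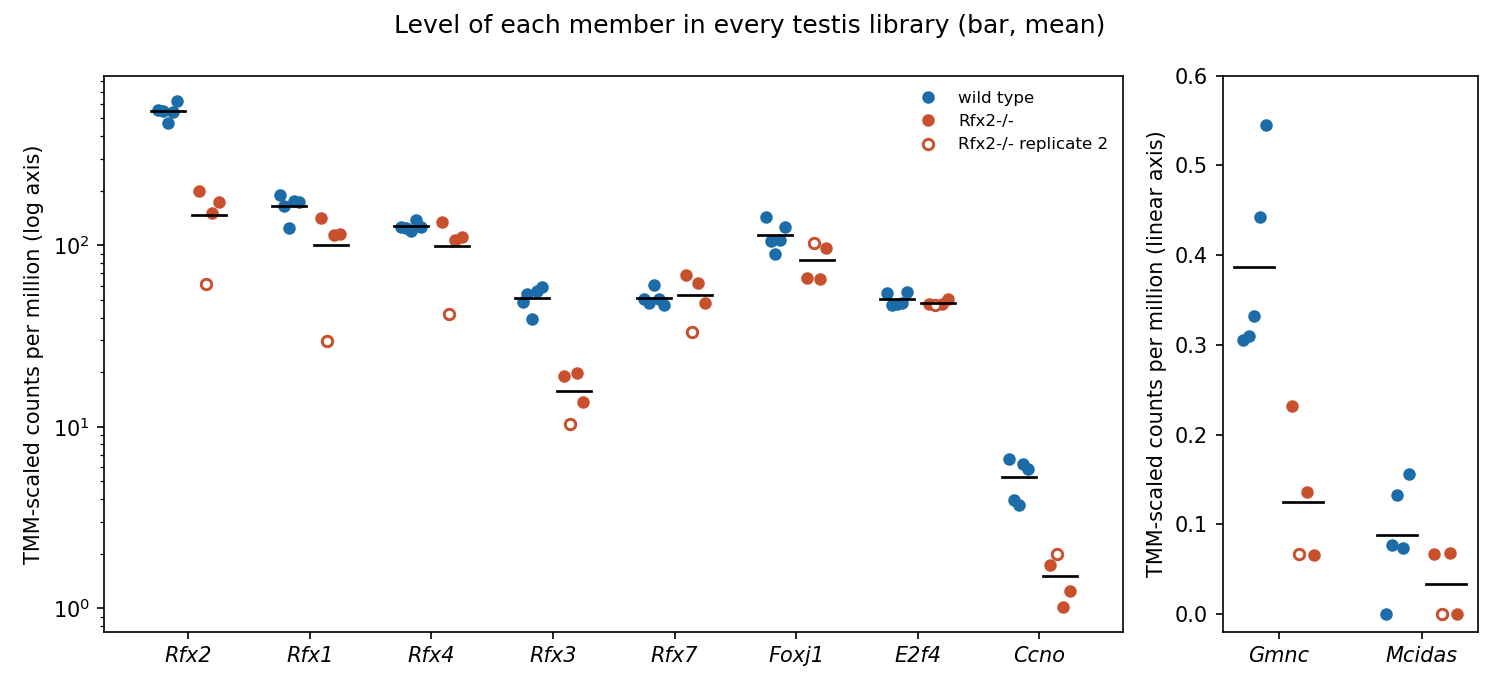
Level of the 10 genes in every library, as TMM-scaled CPM on a log axis (8 genes, left) and a linear axis (Gmnc and Mcidas, right). Points are single mice, horizontal bars are means, and the open circle marks Rfx2-/- replicate 2; Rfx2, Rfx3, Ccno and Gmnc show no overlap between genotypes, and the open circle is the lowest knockout point for Rfx1, Rfx2, Rfx3, Rfx4 and Rfx7.

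Rfx2 itself (ENSMUSG00000024206, GRCm38 as for all positions here, chromosome 17, 56775897 to 56831013, minus strand) was examined first, as the targeted gene. Wild type libraries had 559, 551, 471, 540.2 and 623 CPM, and Rfx2-/- libraries had 199, 61.5, 151 and 173 CPM. Every knockout library lay below every wild type library, and replicate 2 was the lowest by far. The mean fell from 549 ± 54.4 CPM (SD, n = 5) to 146 ± 59.7 CPM (SD, n = 4), or 26.6% of wild type, with a log2 fold change of -1.91 (SE 0.28 and adjusted p 7.81e-04, edgeR). Without Rfx2-/- replicate 2 it was -1.65. Genotypes failed to overlap in this direction in 9.7% of all tested genes, and in the higher direction, where no member did, in 6.16%. The remaining reads are counted over all exons together, and the deleted exon accounts for 5.42% of their length, so its absence alone cannot be read from these counts. The paper reports that its RNA-seq gave no reads on that exon and that RFX2 protein was not detected in the mutants.

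Rfx3 (chromosome 19, 27761721 to 28011166, minus strand) encodes a close relative of RFX2 that can pair with it and is required for ciliogenesis in several tissues. Levels were 48.7, 54.0, 39.5, 55.7 and 58.9 CPM in wild type and 19.0, 10.4, 19.8 and 13.7 CPM in Rfx2-/- testes. The highest knockout library stayed well below the lowest wild type library. The mean fell from 51.3 ± 7.61 CPM to 15.7 ± 4.47 CPM, which is -1.70 in log2 units (SE 0.21 and adjusted p 1.52e-04, edgeR), and -1.55 without Rfx2-/- replicate 2. With 9.437 kb of exon, Rfx3 belongs to the length class that was low in that library, and its level there was 0.70 below the other knockouts on the log2 scale, beside a median of 0.88 below for that class.

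Rfx1 (chromosome 8, 84066834 to 84096992, plus strand), the ubiquitous founding member of the family, was not called. Its wild type libraries had 189, 164, 125, 176 and 173 CPM and its knockout libraries 142, 29.5, 114 and 116 CPM. Replicate 1 of Rfx2-/- lay inside the wild type range, and replicate 2 was 2.05 log2 units below the mean of the other knockouts, the widest gap of the 8 tested genes. The log2 fold change was -0.72 (SE 0.34 and adjusted p 0.194, edgeR), and moved to -0.41 (SE 0.14 and adjusted p 0.0652, edgeR) without that library. Over the alternatives that tested for any change, the adjusted p ranged from 0.0290 (limma) to 0.314 (edgeR without wild type replicate 1). A test of the 2-fold limit itself was not passed. Its exons share 42 bases with C330011M18Rik on the opposite strand.

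Rfx4 (chromosome 10, 84756062 to 84906538, plus strand), which has a testis-specific form and is known for its role in brain development, was not called either. Wild type values were tight, at 127, 125, 120.3, 138 and 126 CPM, whereas the knockouts had 135, 42.0, 107 and 110.4 CPM. Rfx2-/- replicate 1 was inside the wild type range, the others below it. The log2 fold change was -0.37 (SE 0.26 and adjusted p 0.376, edgeR), and -0.11 (SE 0.11) without Rfx2-/- replicate 2, so 1 library carried most of the fitted difference.

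Rfx7 (chromosome 9, 72532240 to 72622937, plus strand), a distant member that lacks the dimerisation domain, overlapped fully between genotypes. Its levels were 50.6, 48.3, 60.3, 50.3 and 46.7 CPM in wild type and 68.9, 33.1, 62.0 and 48.1 CPM in knockout testes. The knockouts straddled the wild type range, 2 above it, 1 below it and 1 inside. The log2 fold change was 0.05 (SE 0.19 and adjusted p 0.885, edgeR), with an interval of 2 SE from -0.34 to 0.44; it was 0.22 without Rfx2-/- replicate 2 and -0.07 without replicate 1. Exons of Rfx7 are crossed by Gm27232 and Gm27241 on the opposite strand. With those overlaps counted, 10.2% of its 46-base stretches occur in other genes, so part of its count may be uncertain.

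**Figure D2:**
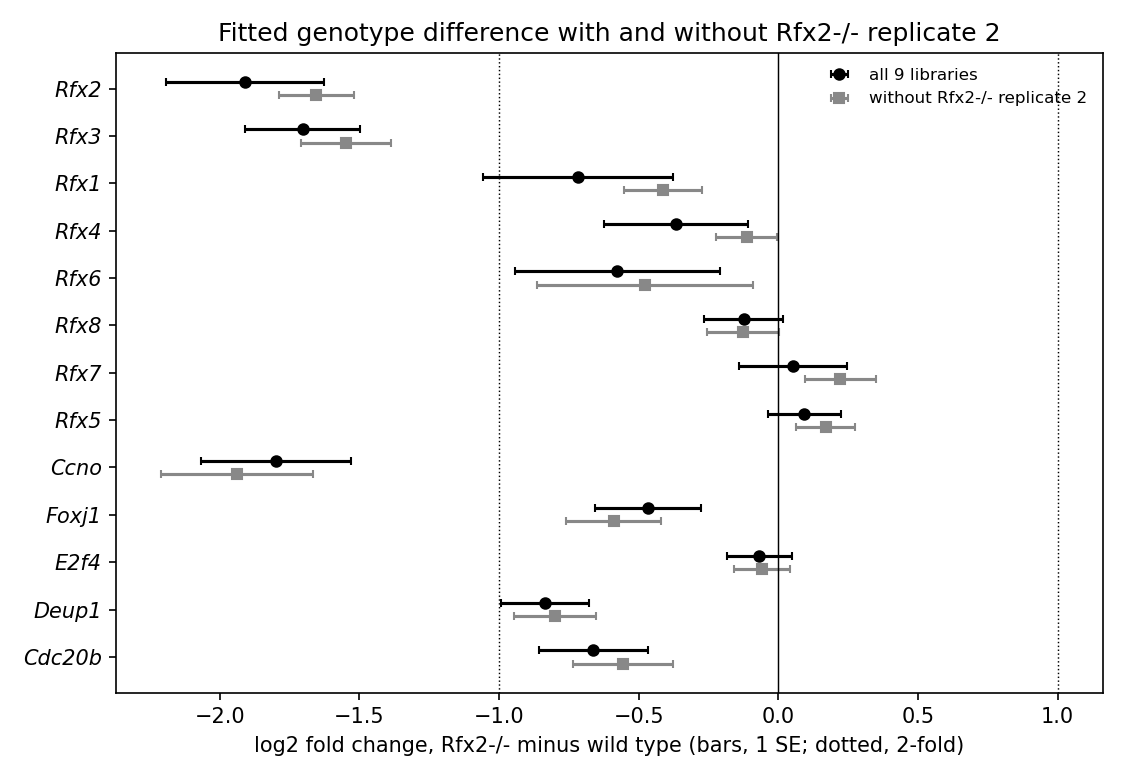
Fitted log2 fold change (Rfx2-/- minus wild type, edgeR) of the RFX genes, of Ccno, Foxj1 and E2f4, and of the centriole genes Deup1 and Cdc20b, from all 9 libraries (circles) and without Rfx2-/- replicate 2 (squares). Bars are 1 SE and dotted lines mark 2-fold; Rfx2, Rfx3 and Ccno lie beyond 2-fold in both fits, from -1.91 to -1.70 and from -1.94 to -1.55.

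Of the other RFX genes, which were not among the 10, none was called. Rfx5, the subunit of the RFX complex that binds promoters of major histocompatibility class II genes, had a log2 fold change of 0.09 (SE 0.13 and adjusted p 0.675, edgeR). B230398E01Rik crosses it on the opposite strand, and with that overlap counted 24.9% of its 46-base stretches occur in other genes. Rfx8 had -0.12 (SE 0.14 and adjusted p 0.598, edgeR). Rfx6, a regulator of pancreatic islet development, was at 1.395 ± 0.574 CPM in wild type and 0.902 ± 0.384 CPM in knockout libraries, with -0.58 (SE 0.37 and adjusted p 0.326, edgeR). The RFX complex partners Rfxap, Rfxank and Ankra2 had no call among 3 tested and a median of 0.20.

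Levels of different genes were compared per kb of exon, with the exons of all protein-coding transcripts merged. A gene expressed from a short form would thus appear lower than it is, and the forms in use were not examined. In wild type testis Rfx2 was the most abundant RFX transcript, at 163 ± 16.2 CPM per kb (SD, n = 5), and held 55.0% ± 1.02 of the summed level of the 8 RFX genes. Rfx8, Rfx1 and Rfx4 followed with 14.9%, 13.2% and 10.3%, and Rfx5, Rfx7, Rfx3 and Rfx6 each had under 3%. In Rfx2-/- testes the share of Rfx2 was 28.3% ± 5.17 (SD, n = 4), from 20.7% to 32.1% against 53.8% to 56.5% in wild type. Rfx8 then had 29.8% ± 11.5, from 21.3% to 46.5%, with the highest share in Rfx2-/- replicate 2, where long genes were low. Only in that library was Rfx8 above Rfx2. Rfx4 had 15.3% and Rfx1 15.2%. Rfx3, called lower by its own level, had 1.15% ± 0.234 where wild type had 1.83% ± 0.153. As shares add up to a whole, the higher share of Rfx8 is no rise in its level. That level was 44.4 ± 4.97 CPM per kb in wild type and 40.8 ± 5.74 in knockout testes. Its share rose as the summed level of the RFX genes fell, to which Rfx2 was not the only contributor. In Rfx2-/- replicate 2 the 7 RFX genes other than Rfx2 summed to 70.3 CPM per kb, against 118 to 143 in wild type. The part of each gene in the rise was not tested.

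**Figure D3:**
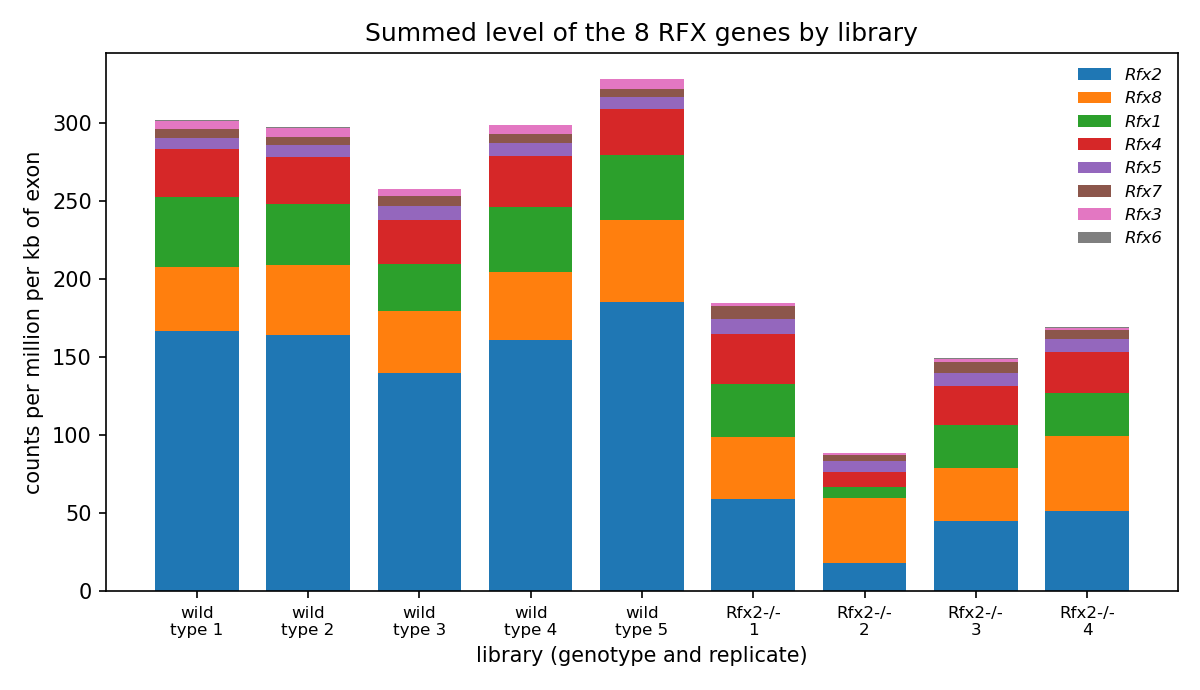
Summed level of the 8 RFX genes in each library, in CPM per kb of exon, stacked by gene. Wild type libraries sum to between 258 and 328 and knockout libraries to between 88.6 and 185, and Rfx2 (lowest block) is the block that shrinks most.

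The summed RFX level was 297 ± 25.2 CPM per kb in wild type (SD, n = 5) and 148 ± 42.2 in Rfx2-/- testes (SD, n = 4). With Rfx2 left out, the other 7 genes summed to 134 ± 9.47 and 104 ± 24.4. Libraries then overlapped, from 118 to 143 in wild type and from 70.3 to 126 in knockouts, with 70.3 in Rfx2-/- replicate 2. The sums were not tested, and no other RFX gene had a level above its wild type range in all 4 knockout libraries.

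Foxj1 (chromosome 11, 116330704 to 116335399, minus strand) had 143, 105, 89.1, 106 and 125 CPM in wild type and 65.7, 103, 65.1 and 96.3 CPM in Rfx2-/- testes. Knockout replicates 1 and 3 were below all wild type libraries, and replicates 2 and 4 lay within the wild type range. Means were 114 ± 20.9 and 82.5 ± 19.9 CPM, with a log2 fold change of -0.47 (SE 0.19). The unadjusted edgeR p was 0.0312 and the adjusted p 0.139, so Foxj1 was not called. Unadjusted p-values under 0.05 in the lower direction were held by 13.7% of all tested genes. Without Rfx2-/- replicate 2 the log2 fold change was -0.59 (edgeR adjusted p 0.0346), still under 2-fold. Over the alternatives that tested for any change, the adjusted p ranged from 0.0150 (limma) to 0.297 (edgeR without Rfx2-/- replicate 3). A test of the 2-fold limit itself was not passed. The related forkhead genes Foxj2 and Foxj3 had no call, with log2 fold changes of -0.10 and 0.11.

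The multiciliation regulators fell into 2 kinds by level. Gmnc (chromosome 16, 26913553 to 26991652, minus strand), which initiates the program, had 4, 4, 5, 6 and 7 counts in the wild type libraries and 7, 1, 2 and 1 counts in the knockouts, where 7 came from the library of 28800855 counts and the others were under the floor of 3 counts, the upper limit that a count of 0 allows. Scaled for depth these were 0.306, 0.309, 0.332, 0.442 and 0.545 CPM in wild type and 0.232, 0.0668, 0.136 and 0.0654 CPM in Rfx2-/- testes, without overlap. The pooled ratio was 0.380, with an exact 95% interval of 0.170 to 0.796 for counting error alone. The two-sided exact permutation p was 0.0159, the smallest that the 126 splits of 5 and 4 mice allow. Too few reads were available for the fit over all genes, and 3.86% of the 2957 genes below the count filter with a mean of at least 1 count showed no overlap in this direction.

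Mcidas (chromosome 13, 112993845 to 113000394, plus strand), a coactivator of E2F4 downstream of GMNC, was barely detected. It had 0, 1, 2, 1 and 2 counts in wild type and 2, 0, 1 and 0 counts in knockout libraries, at or under the floor of 3 counts in all 9. Pooled counts were 6 and 3, and the two-sided exact permutation p of the scaled values was 0.127. A genotype difference was not detectable at this depth, as the interval of the ratio ran from 0.0727 to 2.10. Gmnc and Mcidas were the 2 genes compared by permutation.

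E2f4 (chromosome 8, 105297663 to 105305370, plus strand), the DNA-binding partner of MCIDAS and a broadly expressed cell cycle factor, varied little among the libraries. Wild type libraries had 54.3, 47.1, 47.5, 48.0 and 55.1 CPM, and knockout libraries 47.5, 47.0, 47.2 and 50.6 CPM. Replicate 2 of the knockout did not stand apart here. The log2 fold change was -0.07 (SE 0.12 and adjusted p 0.730, edgeR), with an interval of 2 SE from -0.30 to 0.16, and it was -0.06 without that library.

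Ccno (chromosome 13, 112987802 to 112990777, plus strand), a member of the cyclin family needed for centriole amplification in multiciliated cells, was called lower. Its levels were 6.65, 3.95, 3.72, 6.26 and 5.84 CPM in wild type and 1.73, 2.004, 1.02 and 1.24 CPM in Rfx2-/- testes, from 87, 51, 56, 85 and 75 counts and from 52, 30, 15 and 19 counts. All knockout libraries lay below the lowest wild type library. The mean dropped from 5.28 ± 1.36 CPM (SD, n = 5) to 1.498 ± 0.447 CPM (SD, n = 4), which is -1.80 in log2 units (SE 0.27 and adjusted p 8.27e-04, edgeR), or 28.4% of wild type. Unlike Rfx2 and Rfx3, Ccno was highest in Rfx2-/- replicate 2, and without it the log2 fold change was -1.94.

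**Figure D4:**
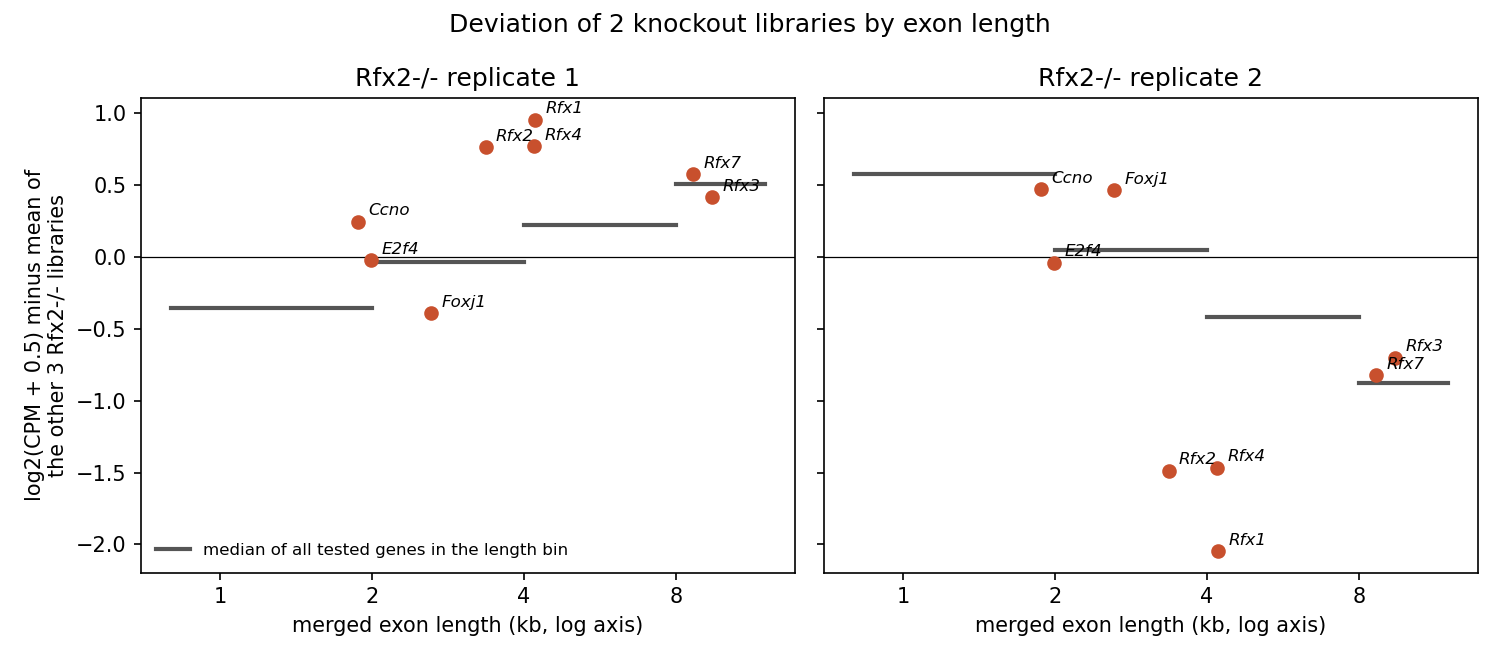
Deviation of Rfx2-/- replicate 1 (left) and replicate 2 (right) from the mean of the other 3 knockout libraries, on the scale log2(CPM + 0.5), against merged exon length in kb on a log axis. The reference for replicate 1 includes replicate 2. Points are the 8 tested genes and horizontal lines are medians of all tested genes per length class; in replicate 2 Rfx1, Rfx2 and Rfx4 lie at -2.05, -1.49 and -1.47, below the medians, and Foxj1 and Ccno at 0.46 and 0.47.

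Because length and library moved together, the 8 tested genes were set against the medians of their length class. In Rfx2-/- replicate 2, Rfx3 at -0.70 and Rfx7 at -0.82 lay close to the median of -0.88 for genes over 8 kb. Rfx1 and Rfx4, both of about 4 kb, were far below the median of -0.42 for 4 to 8 kb, and Rfx2 was below the 0.05 for 2 to 4 kb. With a length trend removed per library, the log2 fold changes of the called genes were -1.90 for Rfx2, -1.54 for Rfx3 and -1.89 for Ccno.

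Ccno and Mcidas are neighbours on chromosome 13, with Cdc20b, which hosts a microRNA cluster of multiciliated cells, on their far side. Within 100 kb, a distance chosen after the values were seen, the fitted changes were not alike. Besides Ccno at -1.80, Cdc20b had -0.66, Dhx29 -0.15, Gm10735 0.37, Mtrex 0.38 and Gpx8 0.50, none of these 5 called.

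Genes of centriole amplification, the step that MCIDAS and GMNC switch on in multiciliated cells, included no call among 12 tested. Their fitted values were below 0 for 9 and had a median of -0.21, beside 0.03 for all tested genes. Deup1, the scaffold of the deuterosome on which new centrioles form, had 258, 265, 187, 298 and 295 CPM in wild type and 156, 135, 139.9 and 153 CPM in Rfx2-/- testes. Its log2 fold change of -0.84 (SE 0.16 and adjusted p 0.00439, edgeR) passed the limit on p, as did 4.49% of all tested genes in the lower and 1.15% in the higher direction, and missed that on fold, while the genotypes did not overlap. Cdc20b, at 10.8, 9.83, 6.97, 8.77 and 7.24 CPM in wild type and 6.04, 4.21, 6.60 and 5.10 CPM in knockouts, was also without overlap (log2 fold change -0.66, SE 0.20, edgeR adjusted p 0.0495). A limit of 0.05 with no demand on fold was met by 7.31% of all tested genes in the lower and 3.48% in the higher direction. Without Rfx2-/- replicate 2 the values were -0.80 for Deup1 and -0.56 for Cdc20b. Plk4, the kinase that starts centriole duplication, and Sass6, of the cartwheel, had 0.11 and 0.14. Stil and Cep152 went the other way, at -0.49 and -0.43 (unadjusted edgeR p 0.0310 and 0.0363). Of the 12, 4 were lower and 0 higher at an unadjusted edgeR p under 0.05. Among all tested genes, 13.7% were lower and 13.9% higher at that limit. The genes of this list were named after their values were seen.

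Partners of E2F4 and other multiciliation regulators had no call among 12 tested of 14, with 6 below 0 and a median of 0.08. Myb and Noto were under the count filter. In all, 34 genes of the pathway lists were examined and none was called in either direction.

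Relative levels among the 10 genes kept a common order at the low end. Per kb of exon, wild type testis had Rfx2 first at 163 CPM, then Foxj1 at 43.4, Rfx1 at 39.3, Rfx4 at 30.3, E2f4 at 25.3, Rfx7 at 5.92, Rfx3 at 5.44, Ccno at 2.82, Gmnc at 0.0817 and Mcidas at 0.0370. Neighbours overlapped between Foxj1 and Rfx1, between Rfx1 and Rfx4, between Rfx7 and Rfx3 and between Gmnc and Mcidas. In Rfx2-/- testes Rfx2 was at 43.5 CPM per kb and overlapped with Foxj1 at 31.4, as did each further neighbour through E2f4 at 24.1, Rfx1 at 23.9 and Rfx4 at 23.5. Below them Rfx7 at 6.13, Rfx3 at 1.67 and Ccno at 0.799 stood apart from each other.

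Genes with the most similar pattern were sought for the 8 tested members by the root mean square difference of log2(CPM + 0.5) over the 9 libraries, each gene centred on its wild type mean, among 12823 candidates, and are named for 5 of them. For Rfx2 these were Atxn7l1 (0.11), Ttc16 (0.19) and Adgb (0.21), where the median candidate differed by 1.44. For Rfx3 they were Pias1 (0.13), Otud3 (0.14) and Dpysl5 (0.16), with a median of 1.19. Ccno had less close matches, Hist1h4a (0.22), 1700016D06Rik (0.24) and Zfp57 (0.24), with a median of 1.10, at its lower counts. Closest to Foxj1 were 1700020L24Rik (0.11), Fbxl15 (0.12) and E030037K01Rik (0.12), with a median of 0.54. For Rfx1 they were Ttbk1 (0.10), Rimbp3 (0.10) and Dot1l (0.11), with a median of 0.90. As the medians differ, a distance does not mean the same closeness for each gene. The single nearest genes to Rfx4, Rfx7 and E2f4 lay at 0.045, 0.049 and 0.054, with medians of 0.61, 0.43 and 0.34. These values describe 9 libraries of unequal depth and were not tested.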

How the data were processed

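RNA was extracted by the authors from decapsulated testes, and TruSeq libraries were sequenced as single reads on an Illumina instrument. According to the methods, reads were mapped with STAR to GRCm38 (Ensembl release 70), reads with several positions were discarded, and featureCounts gave the deposited raw counts per gene, leaving out reads on exons of different genes. The submitters' processing notes name CASAVA 1.8.2, STAR 2.4 and featureCounts 1.4.6. A different aligner and read length are given elsewhere in the methods, and use of strand is not stated, so, without strand, reads on bases shared by counted genes of opposite strands would be left out, and those from an uncounted antisense transcript would be added. The counts carry no normalisation, and 0 columns of other samples were present.

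Names and exon lengths came from GENCODE M21, which held 96.6% of the gene IDs. Counts were tested with edgeR 4.0.16 in R 4.3.3 (quasi-likelihood, TMM, filterByExpr, genotype as single factor), with Benjamini-Hochberg adjustment over the 15613 genes tested. The authors used DESeq with limits of 0.01 on p and of 2-fold. Alternatives used DESeq2 1.42.0 and limma 3.58.1. Intervals of the count ratios of Gmnc and Mcidas are exact at 95%. Like the floor of 3 counts (0.0995 CPM in Rfx2-/- replicate 1, 0.196 to 0.234 CPM elsewhere), they cover counting error only, since reads carried no molecular identifiers. Intervals of 2 SE come from the edgeR fit. Pairs of libraries of a genotype differed by a chi-square of at least 4.32 per gene, so each was kept as a replicate. The libraries come from separate mice, replicate numbers follow deposition order and pair no animals.

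Genes named were the 10 members, called genes of the pathway lists (none was), Rfx5, Rfx6 and Rfx8, and the 3 genes nearest in pattern to Rfx2, Rfx3, Ccno, Foxj1 and Rfx1; genes named outside this rule were chosen after their values were seen. Members and lists were chosen with earlier results of these data known. The scripts were tested on simulated data.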

Additional observations from a re-analysis of the deposited data

Results flagged for a closer look

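Among 32 groups of libraries compared, 2 had a single library set apart by a gap large against the range of its group. A group was a gene, or the summed RFX level, within a genotype. Chance gives about 1 in 20, or 1.6 groups. The rule does not measure distance as such, and Rfx1 in Rfx2-/- replicate 2, at 29.5 CPM beside 114 to 142 CPM in the other knockouts, was not flagged. Rfx7 reached 60.3 CPM in wild type replicate 3, while the other 4 wild type libraries lay between 46.7 and 50.6 CPM. E2f4 reached 50.6 CPM in Rfx2-/- replicate 4, while the other 3 knockout libraries lay between 47.0 and 47.5 CPM.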

How the results depend on the processing

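Over 13 named genes and 19 alternatives, 238 of 246 fold changes kept their direction and their side of the call limits. Where only the limits were altered, the fitted change was that of the main fit, so its direction could not differ. Genes uncalled in both fits also count as kept. When the 2-fold limit itself was tested, Rfx2 (-1.91, edgeR adjusted p 0.0283), Rfx3 (-1.70, adjusted p 0.0200) and Ccno (-1.80, adjusted p 0.0481) no longer passed, 0 members were called, and 272 genes in all were lower and 29 higher. With only an adjusted p of 0.05 required, lower calls came to 1142 and higher calls to 544, and 2 pathway genes were lower (Deup1 and Cdc20b). DESeq2 gave 211 higher genes, and a mean of at least 50 counts gave 73. Scaling by total counts moved the median of all genes from 0.03 to 0.16 and the lower share of calls from 81.7% to 71.7%, and turned E2f4 to 0.065 and Rfx8 to 0.011. Without Rfx2-/- replicate 1, Rfx7 turned to -0.075. The cause was not tested. Over all alternatives the adjusted p ran from 1.87e-10 to 0.0283 for Rfx2, from 5.09e-14 to 0.0200 for Rfx3 and from 3.60e-08 to 0.0481 for Ccno (DESeq2 lowest, 2-fold limit highest).

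Leaving out 1 library at a time gave 3 members called lower each time, 447 to 632 lower and 92 to 175 higher genes in all, and 0 pathway genes. Log2 fold changes then ran from -2.07 to -1.65 for Rfx2, -1.79 to -1.55 for Rfx3, -1.94 to -1.63 for Ccno, -0.90 to -0.41 for Rfx1, -0.53 to -0.11 for Rfx4, -0.075 to 0.22 for Rfx7, -0.59 to -0.33 for Foxj1 and -0.09 to -0.02 for E2f4. No paired analysis was possible because the labels give no replicate numbers shared between genotypes. Depth limits Mcidas and Gmnc, at 7 counts or fewer per library.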
